A study of Mus musculus with 8 samples.

Results

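The genes described here are 7 transcripts that mark antibody-making cells, namely Igj, Mzb1, Cd79a, Cd79b, Ms4a1, Pou2af1 and Tnfrsf17, out of 23904 gene names in the deposited expression table of whole mouse liver. They were taken from the table by name, each name has 1 row, and all 7 were found. The livers came from male C57Bl/6J mice in 4 groups of 2: ApoE-Cyp7a1 transgenic given LPS, ApoE-Cyp7a1 transgenic untreated, wild type given LPS, and wild type untreated. LPS is bacterial lipopolysaccharide, injected daily at 1.5 mg/kg for 7 days. The transgene is described by the submitters as specific to the liver, and Cyp7a1 encodes the enzyme that sets the pace of bile acid production. Cyp7a1 itself was at 73.5 and 70.2 FPKM in transgenic livers with LPS and 64.7 and 78.5 FPKM in untreated transgenic livers, against 19.9 and 27.9 FPKM in wild-type livers with LPS and 24.9 and 49.1 FPKM in untreated wild-type livers, so all transgenic libraries were above all wild-type ones. The sources used here do not give the ages of the mice or say whether untreated mice received a sham injection. The comparison of LPS with no treatment asks what recurrent endotoxin exposure changed in each genotype, and the comparison of genotypes asks whether raised Cyp7a1 altered that.

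A B cell carries its antigen receptor on the surface, where a membrane antibody is held by the signalling chains encoded by Cd79a and Cd79b, and mature B cells also carry CD20, encoded by Ms4a1. When a B cell turns into a plasma cell it reduces many of these surface proteins and enlarges its endoplasmic reticulum to secrete antibody. Igj (current name Jchain) encodes the joining chain that links IgM and IgA into polymers, and Mzb1 encodes an endoplasmic reticulum protein that helps antibody folding and secretion. Pou2af1 encodes a coactivator of octamer-binding transcription factors in B cells, and Tnfrsf17 encodes BCMA, a receptor through which plasma cells receive survival signals. Hepatocytes, the main cells of liver, belong to another lineage. The antibody genes themselves could not be followed. Of 12 immunoglobulin names looked for, 1 (Igll1) has a row, and it is listed at 0 in all 8 libraries. Igll1 is not a constant region gene of secreted antibody, and the constant region genes looked for have no row. Rows with names that begin with Ighv, Igkv or Iglv number 0.

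In the GENCODE vM21 annotation of mm10, Igj lies on chromosome 5 from 88519809 to 88527891 (minus strand), Cd79a on chromosome 7 from 24897381 to 24902197, Cd79b on chromosome 11 from 106311341 to 106314762 (minus strand), Ms4a1 on chromosome 19 from 11249675 to 11266241 (minus strand), Pou2af1 on chromosome 9 from 51213708 to 51240080 and Tnfrsf17 on chromosome 16 from 11313812 to 11320074, the others on the plus strand. The promoters of 1 secretory, 1 surface and 1 regulatory gene that rose together with LPS are shown for reference, each as 300 bases from RefSeq (build GRCm38.p6), 250 before and 50 after the transcript start, on the strand of the gene. They span chr5:88527848-88528147 on the minus strand for Igj, chr7:24897247-24897546 on the plus strand for Cd79a and chr9:51213440-51213739 on the plus strand for Pou2af1. Capitals mark matches, on either strand, to the PU.1 core GAGGAA or the unfolded protein response element TGACGTGG.
Igj: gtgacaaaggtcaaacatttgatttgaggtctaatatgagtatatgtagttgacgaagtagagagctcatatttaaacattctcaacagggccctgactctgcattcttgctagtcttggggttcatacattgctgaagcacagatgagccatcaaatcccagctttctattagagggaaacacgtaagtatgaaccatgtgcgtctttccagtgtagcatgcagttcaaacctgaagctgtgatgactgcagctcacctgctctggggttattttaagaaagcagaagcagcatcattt
Cd79a: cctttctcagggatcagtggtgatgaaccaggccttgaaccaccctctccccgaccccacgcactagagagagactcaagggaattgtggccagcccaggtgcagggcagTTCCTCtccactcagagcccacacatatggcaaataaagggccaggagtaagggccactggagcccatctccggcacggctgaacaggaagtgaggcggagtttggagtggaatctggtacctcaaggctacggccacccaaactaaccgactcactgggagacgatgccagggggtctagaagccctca
Pou2af1: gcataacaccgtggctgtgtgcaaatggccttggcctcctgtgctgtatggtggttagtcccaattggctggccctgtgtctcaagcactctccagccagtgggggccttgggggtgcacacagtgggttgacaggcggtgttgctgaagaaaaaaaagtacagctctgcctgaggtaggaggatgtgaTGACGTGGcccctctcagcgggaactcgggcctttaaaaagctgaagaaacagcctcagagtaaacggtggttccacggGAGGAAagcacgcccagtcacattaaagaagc

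The Pou2af1 promoter holds TGACGTGG starting 61 bases before the start and GAGGAA starting 18 bases after it, and the Cd79a promoter holds GAGGAA, read on the opposite strand, starting 140 bases before. Among 32851 RefSeq promoters of the same length, 0.676% hold TGACGTGG and 28.3% hold GAGGAA on either strand. The octamer ATGCAAAT, present in 1.74% of all promoters, and the EBF1 core CCCNNGGG, present in 13.7%, have no match in these 3 windows, the Igj window has no match at all, and no match overlaps another. Such a match is a run of letters and was not tested as a binding site. Promoters were read for 4 of the 7 genes, namely Igj, Cd79a, Pou2af1 and Tnfrsf17. Cd79b and Ms4a1 had no entry in the RefSeq promoters used, and the position and promoter of Mzb1 are not reported here.

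Levels are in FPKM, fragments scaled to transcript length and to the mapped fragments of the library, so they are per length and can be compared between genes. Changes are differences of log2(FPKM + 1) from a limma fit over all features that reached 1 FPKM in 2 or more libraries of the 8. A change passed where its p, adjusted by Benjamini-Hochberg over the 11463 features tested, was under 0.05. Because 1 is added before the logarithm, these changes understate the change of genes that are low in untreated liver, so the ratio of mean FPKM is also given. The submitters describe the 2 libraries of a group as biological replicates. In 7 hepatocyte genes other than Alb the level was 144 to 8024 FPKM in LPS and 199 to 14330 FPKM in untreated libraries, while Alb was listed at 0 in all 8 libraries.

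With LPS, both secretory genes rose in both genotypes. Igj stood at 36.2 and 25.1 FPKM in the transgenic livers given LPS, against 4.11 and 0.672 FPKM in the untreated transgenic livers. In wild type it stood at 24.1 and 36.2 FPKM with LPS, against 0.820 and 0.709 FPKM untreated. All 4 LPS libraries lay above all 4 untreated libraries, and replicate 1 of untreated transgenic mice was the highest of the untreated. The mean with LPS was 12.8 times that of untreated liver in transgenic mice, a log2 change of 3.42 (SE 0.47, limma adjusted p = 0.00215). In wild type it was 39.5 times, a log2 change of 4.12 (SE 0.47, limma adjusted p = 0.000745).

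Mzb1 was measured at 21.5 and 9.48 FPKM in transgenic livers given LPS, against 3.43 and 0.470 FPKM in untreated transgenic livers. In wild-type livers it was at 11.3 and 14.0 FPKM with LPS, against 0.577 and 0.391 FPKM untreated. As for Igj, all 4 LPS libraries were above all 4 untreated ones. For Mzb1 the transgenic replicates of each treatment lay further apart than the wild-type ones. The log2 change was 2.59 in transgenic mice (SE 0.52, limma adjusted p = 0.0104) and 3.20 in wild type (SE 0.52, limma adjusted p = 0.0038). The transgenic call of Mzb1 was lost when replicate 1 of the LPS group was left out (log2 change 2.04, limma adjusted p = 0.0656). Mzb1 overlaps Spata24 on the same strand in the annotation, and Spata24 was at 14.9 and 13.2 FPKM with LPS against 7.84 and 9.31 FPKM untreated in transgenic livers, and at 6.59 and 8.45 FPKM with LPS against 5.16 and 10.4 FPKM untreated in wild type. The sources used here do not say how fragments over the shared stretch were assigned.

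The 3 surface genes rose as well. Cd79b was the most abundant of them, at 5.18 and 4.58 FPKM in transgenic livers with LPS, against 1.19 and 0.769 FPKM in untreated transgenic livers. In wild type it reached 8.64 and 6.19 FPKM with LPS, against 0.499 and 0.446 FPKM untreated. No LPS library overlapped an untreated one, and both transgenic LPS libraries lay below both wild-type LPS libraries. The log2 change of Cd79b was 1.58 in transgenic mice (SE 0.18, limma adjusted p = 0.000972) and 2.50 in wild type (SE 0.18, limma adjusted p = 0.000187), or 4.99 and 15.7 times in mean FPKM.

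Cd79a, its partner in the antigen receptor, was at 2.36 and 1.70 FPKM with LPS against 0.525 and 0.278 FPKM untreated in transgenic livers. In wild-type livers it was at 2.59 and 2.99 FPKM with LPS against 0.194 and 0.0738 FPKM untreated. Its order over the 4 groups was that of Cd79b, with untreated transgenic libraries above untreated wild-type ones and LPS-treated transgenic libraries below LPS-treated wild-type ones. The log2 change was 1.11 in transgenic mice (SE 0.17, limma adjusted p = 0.00306) and 1.74 in wild type (SE 0.17, limma adjusted p = 0.00036).

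Ms4a1 was the lowest of the surface genes in LPS libraries. It was measured at 1.68 and 1.34 FPKM in transgenic livers with LPS, against 0.274 and 0.223 FPKM untreated, and at 1.69 and 1.24 FPKM in wild-type livers with LPS, against 0.151 and 0.244 FPKM untreated. The genotypes overlapped in both treatments, and LPS and untreated libraries did not. Its log2 change was 1.00 in transgenic mice (SE 0.15, limma adjusted p = 0.00284) and 1.04 in wild type (SE 0.15, limma adjusted p = 0.00214). An antisense gene, 4930526L06Rik, overlaps Ms4a1, and the sources used here do not say whether the authors' quantification used strand.

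Pou2af1, the coactivator, was at 5.66 and 3.19 FPKM in transgenic livers with LPS, against 0.476 and 0.243 FPKM untreated. In wild-type livers it was at 3.67 and 4.80 FPKM with LPS, against 0.163 and 0.170 FPKM untreated. Its log2 change was 1.96 in transgenic mice (SE 0.23, limma adjusted p = 0.00106) and 2.16 in wild type (SE 0.23, limma adjusted p = 0.000553). Within each LPS group its higher library was the one in which Igj and Mzb1 were higher too, replicate 1 in transgenic mice and replicate 2 in wild type. The surface genes too were higher in replicate 1 of the transgenic LPS group, while in wild type with LPS replicate 2 was higher for Cd79a and replicate 1 for Cd79b and Ms4a1.

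Tnfrsf17 was listed at 0 in all 4 untreated libraries. With LPS it was at 0.710 and 0.0919 FPKM in transgenic livers and at 0.271 and 0.155 FPKM in wild-type livers, so it was above 0 in every LPS library and reached 1 FPKM in none of the 8. It therefore was not among the features tested. Fitted with no filter, its log2 change was 0.45 in transgenic mice (SE 0.19, limma adjusted p = 0.159) and 0.28 in wild type (SE 0.19, limma adjusted p = 0.388), and neither passed. In that fit 12.4% of features rose in transgenic mice and 13.1% in wild type.

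**Figure D1:**
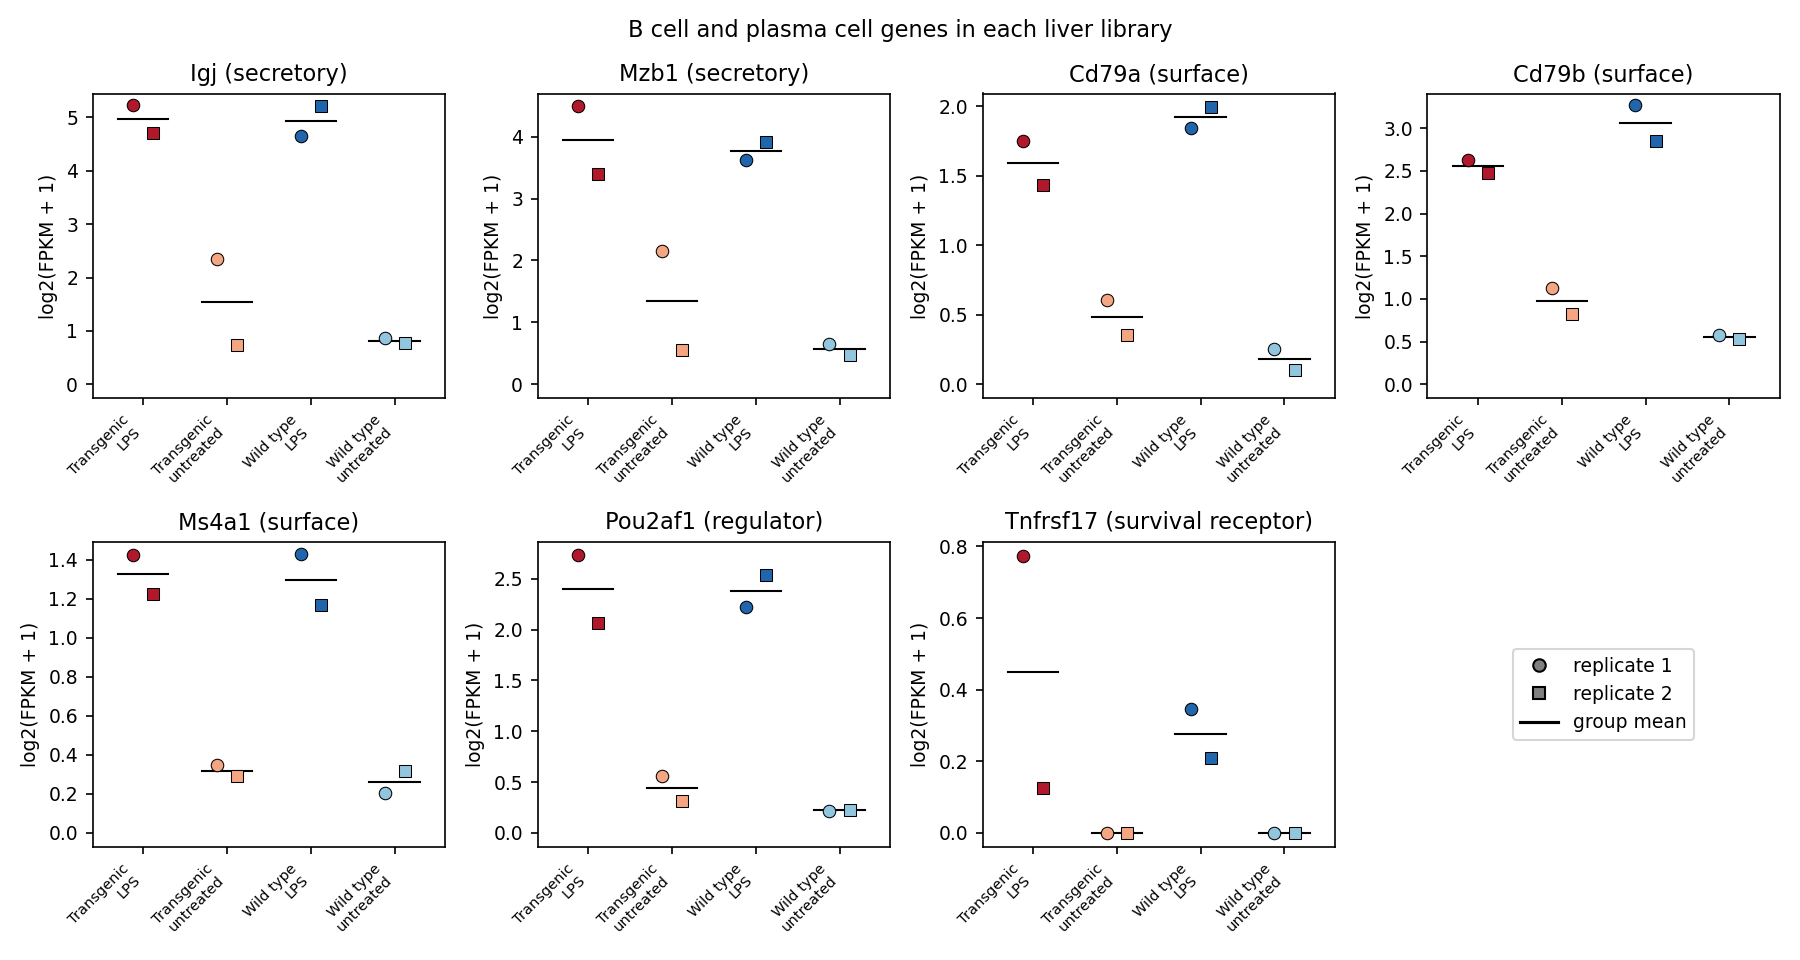
Level of each of the 7 genes as log2(FPKM + 1), with 1 point per liver library (circle, replicate 1; square, replicate 2), a black line at the mean of each group, and a separate vertical scale per gene. For all 7 genes both LPS libraries of a genotype lie above both untreated ones, and replicate 1 of untreated transgenic mice is the highest untreated library for Igj (4.11 FPKM) and Mzb1 (3.43 FPKM).

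In all, 6 of the 7 genes passed the filter on low values and 6 of these 6 rose with LPS in each genotype. Over all features tested, 16% rose with LPS in transgenic mice and 16.2% in wild type. The count of 6 is not support of its own, because each of these genes reached 1 FPKM in at most 1 untreated library and so entered the test through the LPS groups. Among tested features under 1 FPKM in both untreated libraries of the genotype, 72.5% rose in transgenic mice and 72.1% in wild type. For all 7 genes, the untested Tnfrsf17 included, both LPS libraries lay above both untreated ones in each genotype. Of tested features, 31.8% had this order in transgenic mice and 30.5% in wild type. This order is not support of its own either, because the tested genes entered through the LPS groups. Its share among features low in untreated liver is not given here. In whole tissue, more cells of a type and more RNA per cell cannot be told apart.

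**Figure D2:**
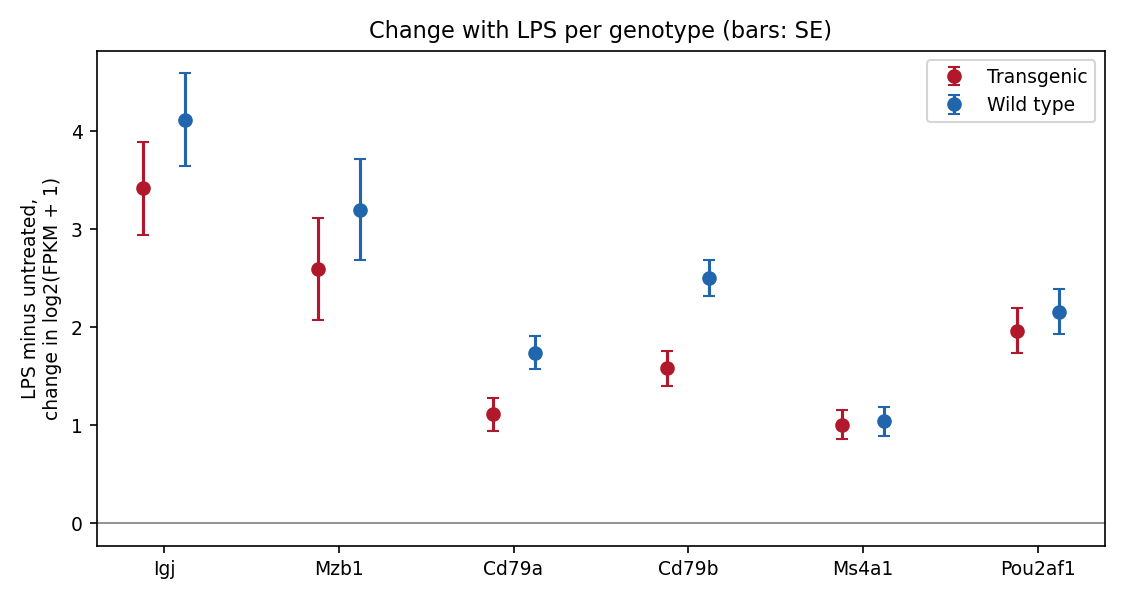
Change with LPS in log2(FPKM + 1) for the 6 tested genes in each genotype, as points with bars of 1 SE from the limma fit over all 8 libraries. All changes lie above 0, from 1.00 for Ms4a1 in transgenic mice to 4.12 for Igj in wild type.

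The secretory genes changed by a larger factor than the surface genes in the group means. In wild type the ratio of mean FPKM, LPS over untreated, was 39.5 for Igj and 26.2 for Mzb1, against 20.8 for Cd79a, 15.7 for Cd79b and 7.45 for Ms4a1. In transgenic mice it was 12.8 for Igj and 7.95 for Mzb1, against 5.06 for Cd79a, 4.99 for Cd79b and 6.08 for Ms4a1. Pou2af1 stood with the secretory genes in this respect, at 12.3 in transgenic mice and 25.4 in wild type. This order was given by 2 libraries per group and depended on them. Without replicate 1 of untreated wild type the ratio was 37.7 for Cd79a, above the 32.4 of Mzb1, and without replicate 2 of untreated transgenic mice it was 4.52 for Mzb1, below the 5.52 of Ms4a1.

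Summed within a library, Igj and Mzb1 were set against Cd79a, Cd79b and Ms4a1 as a ratio, which does not depend on any scaling between libraries. The ratio was 6.26 and 4.54 in transgenic livers with LPS, against 3.80 and 0.900 in untreated transgenic livers. In wild-type livers it was 2.74 and 4.82 with LPS, against 1.66 and 1.44 untreated. LPS libraries lay above the untreated libraries of their own genotype in both cases, yet replicate 1 of untreated transgenic mice was above replicate 1 of wild type with LPS. On the log2(FPKM + 1) scale the mean of the secretory genes minus the mean of the surface genes changed with LPS by 1.77 in transgenic mice and 1.90 in wild type, against an SD between replicates of 0.58 pooled over the groups. With 0.1 added in place of 1 the changes were 1.52 and 1.53, and with Tnfrsf17 counted among the secretory genes they were 0.92 and 0.77. Without replicate 1 of untreated transgenic mice the transgenic change was 2.47, and without replicate 2 it was 1.07. No test was made of this difference, because the genes were chosen with results of these data known.

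**Figure D3:**
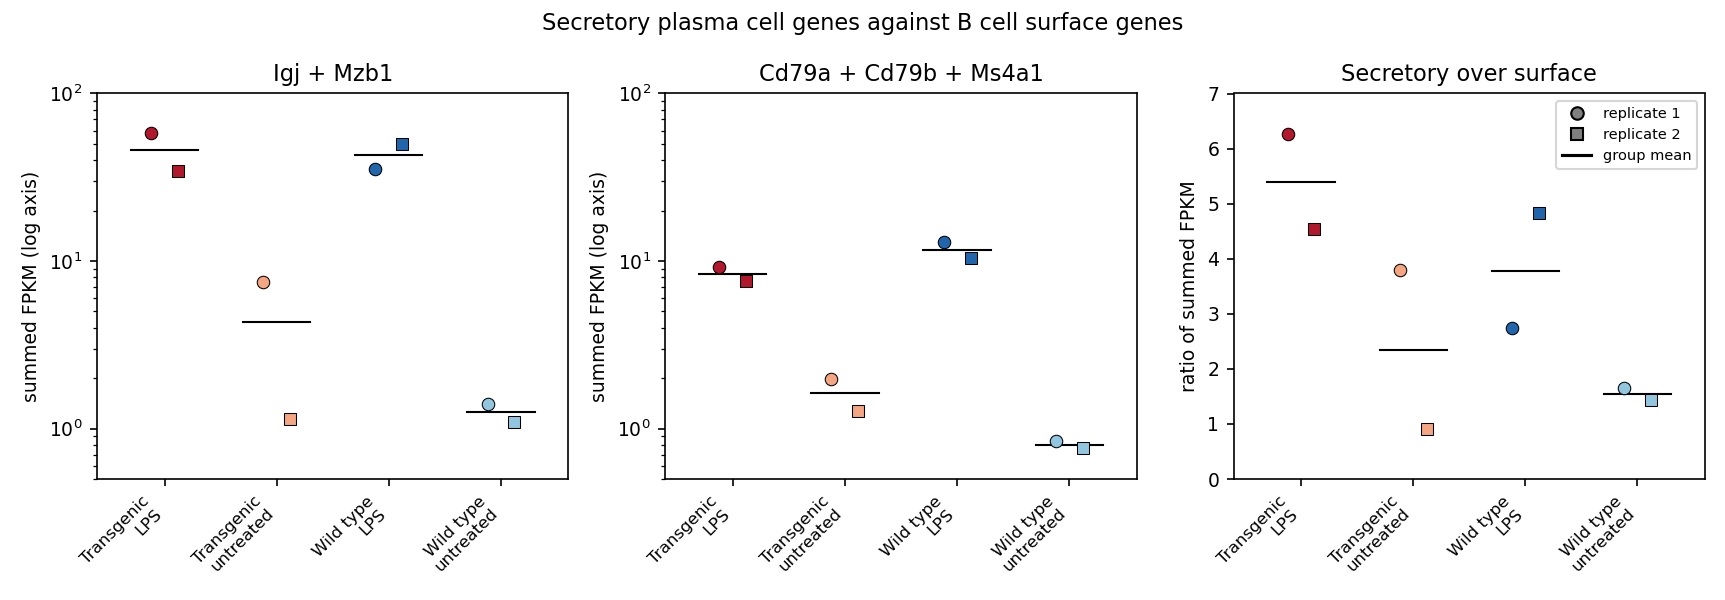
Summed FPKM of the secretory genes Igj and Mzb1 (left, log axis), of the surface genes Cd79a, Cd79b and Ms4a1 (middle, log axis), and their ratio within each library (right, linear axis from 0), with 1 point per library and a line at the mean of each group. The secretory sum spans 1.10 to 57.8 FPKM and the surface sum 0.763 to 12.9 FPKM, and replicate 1 of untreated transgenic mice has a ratio of 3.80 beside 0.900 in replicate 2.

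Replicate 1 of untreated transgenic mice also stood apart in genes of the exocrine pancreas. Its 7 pancreas markers summed to 3803 FPKM, against 774 FPKM in replicate 2 of the same group, 1021 and 51.3 FPKM in untreated wild type, 93.2 and 2.34 FPKM in transgenic mice with LPS and 133 and 38.6 FPKM in wild type with LPS. All 7 pancreas markers were above 0 in every library except 1, in which 1 marker was listed at 0. All 7 fell with LPS in transgenic mice by limma. In wild type 0 of 7 passed, with 0 of 7 at an unadjusted p under 0.05. Among all features tested, 10.5% fell in transgenic mice and 5.41% in wild type. The LPS change itself differed between genotypes for 0 of the 7 by limma, beside 0.00872% of all features. The part of pancreas tissue in the levels of Igj and Mzb1 was not tested. Without replicate 1 of untreated transgenic mice the LPS change in transgenic mice was 4.22 for Igj and 3.39 for Mzb1, and the ratio of mean FPKM was 45.6 and 33.0. Without replicate 2 instead, the changes were 2.61 and 1.79 and the ratios 7.47 and 4.52, and all 4 changes passed.

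Set against Ptprc, the CD45 gene of all leukocytes, the secretory sum was 6.10 and 2.98 times Ptprc in transgenic livers with LPS, against 3.25 and 0.586 times in untreated transgenic livers. In wild type it was 3.12 and 4.42 times with LPS, against 0.855 and 0.707 times untreated. The secretory values overlapped in transgenic mice and not in wild type. The surface sum was 0.975 and 0.658 times Ptprc in transgenic livers with LPS, against 0.855 and 0.651 times untreated, and these overlapped too. In wild type it was 1.14 and 0.915 times with LPS, against 0.516 and 0.491 times untreated, with no overlap. Ptprc itself rose with LPS, by 1.87 on the log2 scale in transgenic mice and by 2.25 in wild type.

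Between genotypes, 0 of the 6 tested genes passed in limma, in untreated or in LPS-treated mice. Over all features, 0.0611% passed in untreated mice and 0% with LPS. At an unadjusted p under 0.05 there were 0 of the 6 in untreated mice and 1 with LPS, where 5.5% and 12.2% of all features were under it. Without replicate 2 of the transgenic LPS group, 154 features were higher and 269 lower in transgenic mice with LPS, and without either transgenic LPS library 34 were higher and 10 lower in untreated mice, with 0 of the 6 genes among them. Cd79b differed by -0.50 with LPS, transgenic minus wild type (SE 0.18, limma adjusted p = 0.365), and by 0.42 in untreated mice (SE 0.18, limma adjusted p = 0.915). Igj differed by 0.03 with LPS (SE 0.47, limma adjusted p = 0.985) and by 0.73 in untreated mice (SE 0.47, limma adjusted p = 1). Without replicate 1 of untreated transgenic mice, the last of these was -0.077. Cd79a and Cd79b were the genes with both untreated transgenic libraries above both untreated wild-type ones and both LPS-treated transgenic libraries below both LPS-treated wild-type ones, orders that 15.4% and 30% of tested features had.

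The test of whether the LPS change itself differed between genotypes also called 0 of the 6 genes in limma and 0.00872% of all features. Without replicate 2 of the transgenic LPS group it called 119 features in the positive and 157 in the negative direction, again with 0 of the 6 genes. At an unadjusted p under 0.05 there were 2 of the 6, beside 10.4% of all features. These 2 were the antigen receptor chains. The transgenic LPS change minus the wild-type one was -0.92 for Cd79b (SE 0.26, limma adjusted p = 0.418, unadjusted p = 0.00796) and -0.63 for Cd79a (SE 0.24, limma adjusted p = 0.443, unadjusted p = 0.0295). For Ms4a1 it was -0.03 (SE 0.21, limma adjusted p = 0.961), and its sign was positive with quantile normalization (0.056). For Igj and Mzb1 it was -0.70 and -0.61, and without replicate 1 of untreated transgenic mice it was 0.10 and 0.19.

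Other genes of B cells moved in the same direction as the surface genes. Of 19 other B cell genes above 0, 10 were tested, and 10 rose in transgenic and 10 in wild-type mice, with a median log2 change of 1.13 and 1.54, beside -0.04 and -0.05 over all features tested. Of all features 16% and 16.2% rose, and of those under 1 FPKM in both untreated libraries of the genotype 72.5% and 72.1%. Of the 19, 18 were under 2 FPKM in every untreated library, so the tested ones too had entered mainly through the LPS groups. Cd37, a tetraspanin of mature B cells, rose by 2.00 in transgenic mice and 2.41 in wild type, to between 8.90 and 12.8 FPKM in the LPS libraries. Btk, the kinase that carries the B cell receptor signal and is also present in myeloid cells, rose by 1.67 and 2.29, and the scaffold gene Bank1 by 1.22 and 1.55. The row of Cd55, a complement regulator shared with Daf2 and expressed by many cell types, rose by 1.71 in transgenic mice and 1.70 in wild type.

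Other plasma cell genes did not move as 1 group. Of 14, 11 were tested, and 3 rose and 2 fell in transgenic mice while 4 rose and 1 fell in wild type, with medians of 0.31 and 0.40. Over all features 10.5% fell in transgenic mice and 5.41% in wild type. The list holds 8 genes that were at 7.81 to 117 FPKM in every untreated liver library, among them Xbp1, a transcription factor of the secretory pathway, and Sdc1, which encodes the plasma cell marker CD138 and is also made by hepatocytes. Of these, Creld2, an endoplasmic reticulum stress gene, fell by 0.91 in transgenic mice and 1.02 in wild type. Xbp1 fell by 0.65 in transgenic mice and changed by -0.24 in wild type (limma adjusted p = 0.409). Cd38, an enzyme of plasma cells and also of other liver cells, is among the 8 as well. It rose by 1.58 in transgenic mice and 1.46 in wild type. The rest of the 8 did not pass in either genotype.

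Among the 6 plasma cell genes that were under 2 FPKM in untreated liver, Tnfrsf13b, which encodes the receptor TACI, rose by 1.31 in transgenic mice and 1.54 in wild type. It was at 2.09 and 1.43 FPKM in transgenic livers with LPS, against 0.0960 and 0.117 FPKM untreated, and at 1.95 and 2.31 FPKM in wild-type livers with LPS, against 0.105 and 0.0389 FPKM untreated. Irf4, a transcription factor needed for plasma cell formation, rose by 1.14 in transgenic mice and 0.86 in wild type. In transgenic livers it was at 1.93 and 0.915 FPKM with LPS, against 0.0666 and 0.0828 FPKM untreated, so replicate 1 was again the higher LPS library. Derl3, which serves protein disposal from the endoplasmic reticulum, rose by 1.24 in wild type and changed by 0.31 in transgenic mice (limma adjusted p = 0.232). The difference between these changes was -0.92 (limma adjusted p = 0.418) and did not pass.

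Of the signals that attract or sustain B cells, 9 of 11 names had a value above 0. Of these, 4 features were tested, and 2 rose in each genotype. Among all features tested, 16% rose in transgenic mice and 16.2% in wild type. Cxcl13, the chemokine that draws B cells into follicles, was at 85.1 and 138 FPKM in transgenic livers with LPS, against 4.77 and 2.202 FPKM untreated. In wild-type livers it was at 50.01 and 108 FPKM with LPS, against 4.66 and 1.12 FPKM untreated. Ltb, encoding lymphotoxin beta, rose by 0.76 in transgenic mice and 1.11 in wild type. It was at 0.162 to 0.511 FPKM in the untreated libraries and so entered the test through the LPS groups. Tnfsf13b, which encodes the B cell survival factor BAFF, stayed under 1 FPKM in all 8 libraries and was not tested, at 0.652 and 0.591 FPKM with LPS against 0.365 and 0.163 FPKM untreated in transgenic livers, and at 0.970 and 0.807 FPKM with LPS against 0.227 and 0.154 FPKM untreated in wild type. Tnfsf13, which encodes the factor APRIL that binds BCMA, shares its row with Senp3 and Tnfsf12, and this row did not pass in either genotype (changes of 0.21 and 0.39).

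Among 7 tested features for receptors that bind or carry antibody, 5 rose and 1 fell in transgenic mice, and 4 rose and 0 fell in wild type. Over all features 16% rose and 10.5% fell in transgenic mice, and 16.2% rose and 5.41% fell in wild type. Fcgr1, the high-affinity IgG receptor, rose by 2.13 in transgenic mice and 2.45 in wild type, Fcgr4 by 2.25 and 2.18, and the row shared by Fcgr2b and Fcgr3 by 1.34 and 1.42. Pigr encodes the receptor that carries polymeric antibody with its joining chain across epithelium, and in rodents hepatocytes make it to move IgA into bile. It was at 131 and 184 FPKM in transgenic livers with LPS, against 311 and 256 FPKM untreated, a change of -0.85 that passed (limma adjusted p = 0.0247). In wild-type livers it was at 229 and 257 FPKM with LPS, against 410 and 357 FPKM untreated, a change of -0.65 that did not pass (limma adjusted p = 0.0684). The transgenic change minus the wild-type one was -0.20 for Pigr (limma adjusted p = 0.841) and did not pass. Pigr was lower in each LPS library than in both untreated libraries of its genotype, and Igj was higher. The share of all features that were lower in this way is not given here, and a link between Pigr and Igj was not tested.

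**Figure D4:**
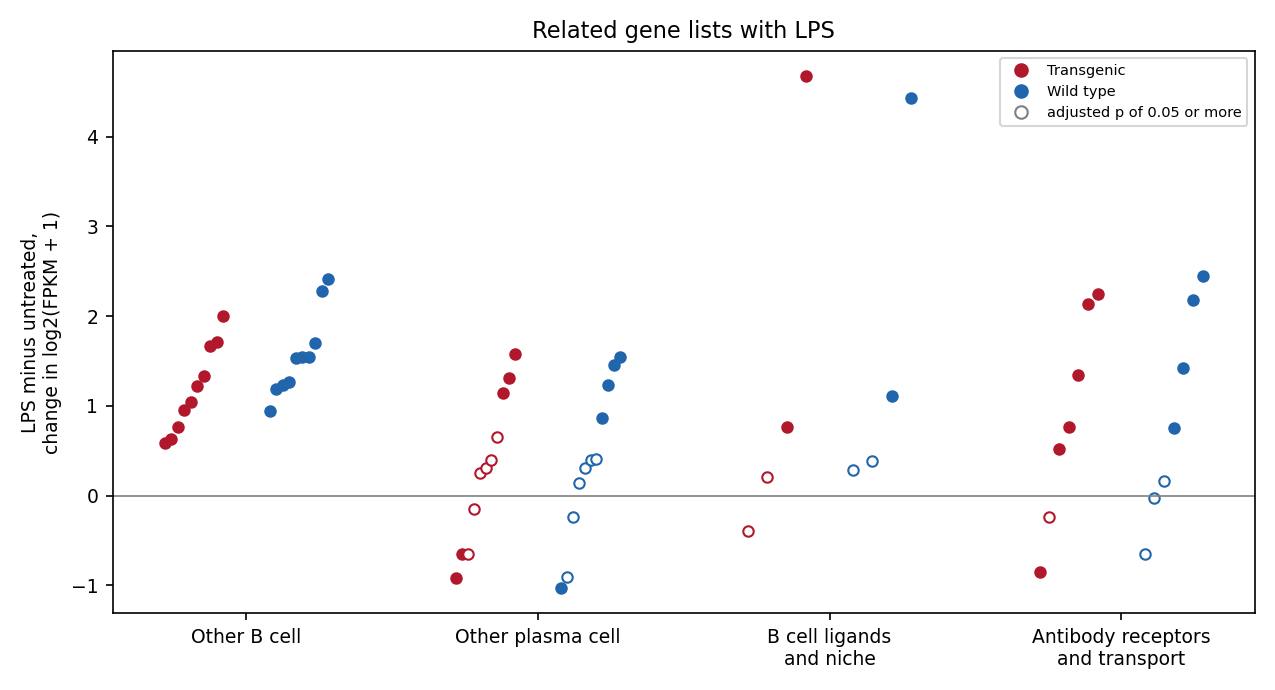
Change with LPS in log2(FPKM + 1) for each tested feature of 4 related gene lists, transgenic mice in red and wild type in blue, filled where the adjusted p was under 0.05. All 10 tested B cell genes lie above 0 in both genotypes, whereas plasma cell genes lie on both sides of 0, and Cxcl13 is the highest point, at 4.67 in transgenic mice and 4.43 in wild type.

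Many markers of other blood cells also moved with LPS. Of 7 macrophage markers 6 rose in each genotype, and they summed to 997 and 1043 FPKM in transgenic livers with LPS against 159 and 113 FPKM untreated, and to 1174 and 1200 FPKM in wild type with LPS against 167 and 96.7 FPKM untreated. The 4 neutrophil markers with a row all rose in each genotype, as did all 5 cell cycle genes. Of 3 tested genes of red blood cell precursors 2 rose in transgenic mice and 3 in wild type. Among all features tested, 16% rose in transgenic mice and 16.2% in wild type. The 10 T and NK cell markers summed to 5.45 and 6.82 FPKM in transgenic livers with LPS against 3.42 and 2.28 FPKM untreated, and to 6.08 and 6.93 FPKM in wild type with LPS against 2.38 and 2.47 FPKM untreated. Of them 1 reached the filter, Nkg7, which rose by 0.84 in transgenic mice and 1.24 in wild type. The T cell genes Cd3d and Cd3g overlapped between treatments in both genotypes. Cd3e and Cd4 did so in wild type only, and Cd8b1 and Lck in transgenic mice only. Nkg7, Cd2, Cd8a and Klrb1c were higher in both LPS libraries of each genotype, an order that 31.8% of tested features had in transgenic mice and 30.5% in wild type. For Cd8a in transgenic mice the values were 0.0771 and 0.129 FPKM with LPS, against 0.0729 and 0.0708 FPKM untreated. Plasmacytoid dendritic cells also make Mzb1. Of 4 tested genes in their marker list of 6, 1 rose in each genotype. This was Tcf4, which rose by 0.73 in transgenic mice (limma adjusted p = 0.027) and 0.72 in wild type (limma adjusted p = 0.0312). The list summed to 59.3 to 92.3 FPKM in LPS and 63.0 to 184 FPKM in untreated libraries. Most of each sum was Bst2, at 54.9 to 81.0 FPKM in LPS and 51.3 to 86.8 FPKM in untreated libraries, except in replicate 1 of untreated transgenic mice. There Klk1, whose row has the same values as those of 4 Klk1b genes, was at 116 FPKM, against 25.9 FPKM in replicate 2 and 33.1 and 1.41 FPKM in untreated wild type, the order of the pancreas marker sums in each genotype. Their markers Siglech and Ccr9 were at 0.0169 to 0.352 FPKM in LPS libraries and 0.0492 to 0.294 FPKM in untreated ones. The part of these cells in the levels of the 7 genes was not tested.

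By Pearson r of log2(FPKM + 1) over the 8 libraries, the tested feature most like Mzb1 was Nfkb1 (r of 0.993), followed by Blnk, a B cell adaptor (0.990), and Igj (0.990). For Igj the closest were Cpz (0.993), Rprl1 (0.991) and Pkmyt1 (0.990), and for Cd79a they were Ptpn18 (0.998), Rbl1 (0.998) and Kcnab2 (0.995). Lsp1 was closest to Cd79b (0.998), Angptl7 to Ms4a1 (0.996) and Smc2 to Pou2af1 (0.997). These values are descriptions over the same 8 libraries, which fall into an LPS and an untreated cluster. Between 311 features for Mzb1 and 966 for Pou2af1 exceeded an r of 0.95.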

How the data were processed

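RNA sequencing of whole liver gave 8 libraries in 4 groups of 2, per the labels, from a stranded mRNA kit. The deposited table holds FPKM values made by the authors, and the submitters' processing notes name TopHat2 2.1.0, Bowtie2 2.2.6, Cufflinks, Cuffdiff 2.2.1 and build mm10. The annotation, filters and scaling the authors used are not stated in those notes or in the labels. With FPKM alone, depth per library is unknown, and so counting intervals were not computed. The lowest values (under 0.03 FPKM) were checked for a step shared with replicate 1 of wild type with LPS (tolerance 0.05 on the log2 scale). In 3 of the other 7 libraries 45.3% to 61.6% of ratios shared a step, and in the rest 11.0% to 27.1% did, so no depth was read from them. Summed FPKM was 406668 to 469644 in LPS and 500765 to 580051 in untreated libraries.

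The table has 24545 rows and 0 unmatched value columns. Of repeated names (494) the row with the highest sum was kept, 27 names turned into dates were left unnamed, and rows with identical values were joined, leaving 17294 features above 0. Group means of log2(FPKM + 1) were modelled for 11463 features in limma 3.58.1 under R 4.3.3, with 4 residual degrees of freedom, empirical Bayes moderation with a trend and 2-sided tests, for 5 contrasts. The code was tested on simulated data. The replicate numbers were not used as a block. The 7 genes are named whatever their values. From each related list up to 4 features are named, the largest changes that passed. Further ones were chosen after their values were seen (Creld2, Xbp1, Sdc1, Tnfsf13b, Tnfsf13, Ptprc, Spata24, Siglech, Ccr9 and the other blood cell markers named). The 7 genes and all lists were chosen with earlier results of these data known. Alternatives were another pseudocount, other filters and scalings, robust moderation, only the groups compared, a replicate block and leaving out libraries.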

Additional observations from a re-analysis of the deposited data

How the results depend on the processing

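With the filter of 5 FPKM the genes that rose numbered 3 in transgenic mice and 3 in wild type, since only Igj, Mzb1 and Cd79b were then tested. Under the other alternatives 6 rose in each genotype (5 in transgenic mice without replicate 1 of their LPS group, where Mzb1 did not pass), and 0 passed in any contrast of genotypes. Without 1 library each, the counts ran from 6 to 6 in wild type and from 5 to 6 in transgenic mice. The labels give the replicate numbers no meaning, and deviations of same-numbered libraries correlated at 0.043 to 0.46 over the pairs of groups. With the replicate block 6 genes rose in each genotype, with 1965 rises and 1349 falls over all features in transgenic mice and 1977 and 792 in wild type (1834, 1200, 1861 and 620 without it). Over all alternatives the rises ran from 888 to 2151 in transgenic mice and from 886 to 2262 in wild type, and the falls from 224 to 1606 and from 62 to 1221. Features called between untreated genotypes numbered 7, with 44 without either transgenic LPS library, 2 without either wild-type LPS library, 3 and 4 without untreated transgenic replicates 1 and 2, 22 with only the groups compared, 0 with no filter or without both untreated libraries numbered 1, and 5 to 8 otherwise. With LPS they numbered 0, with 21 and 423 without transgenic LPS replicates 1 and 2 and 0 to 2 otherwise. For the difference in LPS change they numbered 1, with 276 without transgenic LPS replicate 2 and 0 to 4 otherwise.

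The change of secretory minus surface genes was 0.92 in transgenic mice and 0.77 in wild type with Tnfrsf17 added to the secretory mean, and with 1 library left out it ran from 1.07 to 2.47 in transgenic mice and from 1.59 to 2.202 in wild type. It was 2.47 in transgenic mice without both untreated libraries numbered 1, an alternative chosen after seeing the data.

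The genotype differences, of which none passed, changed sign in places. Without that pair of libraries the untreated difference was -0.031 for Igj and -0.025 for Ms4a1, and the difference in LPS change was 0.058 for Igj, 0.10 for Mzb1 and 0.052 for Ms4a1, and the last was 0.056 with quantile normalization. With 1 library left out, the untreated difference ran from -0.077 to 1.53 for Igj and from -0.011 to 1.58 for Mzb1. The difference with LPS ran from -0.26 to 0.31 for Igj, -0.38 to 0.73 for Mzb1, -0.10 to 0.16 for Ms4a1 and -0.31 to 0.35 for Pou2af1. The difference in LPS change ran from -1.51 to 0.10 for Igj, -1.41 to 0.19 for Mzb1, -0.17 to 0.10 for Ms4a1 and -0.53 to 0.14 for Pou2af1. The cause was not tested. All 7 genes were under 1 FPKM in both untreated wild-type libraries. In untreated transgenic mice only Igj, Mzb1 and Cd79b were above 1 FPKM, and only in replicate 1. With depth unknown, the untreated levels of the 7 genes carry an error that cannot be given.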
